A study of Homo sapiens with 4 samples.

Results

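The dual-specificity MAP kinase phosphatases are the 10 genes DUSP1, DUSP2, DUSP4, DUSP5, DUSP6, DUSP7, DUSP8, DUSP9, DUSP10 and DUSP16. They were chosen by symbol. Probe sets were kept where the platform annotation lists exactly 1 symbol and it is that of one of these genes, which gave 22 probe sets of 54675 on the array and of 41097 with 1 symbol. The arrays were Affymetrix expression arrays hybridised with total RNA from HEK293, a human embryonic kidney cell line. By the protocol given for all 4 samples, cells grown in medium with 10% serum went without serum overnight. One group then received 1 µM LPA for 2 h (lysophosphatidic acid, a phospholipid of serum whose receptors couple to G proteins), and the other is labelled as untreated, with Vc in its titles, which the labels do not explain. Each group had 2 arrays, with replicate numbers 1 and 2. The labels do not say that the replicates are separate cultures or that a number marks a shared day, so p-values reflect only how much these arrays vary, part of which may be technical.

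MAP kinases such as ERK, JNK and p38 are switched on by phosphate on a threonine and a tyrosine of the same loop, and these phosphatases remove both. Several of their genes are themselves induced by the kinases they switch off, which makes them a negative feedback on signalling from growth factor receptors and G protein-coupled receptors. The family has 3 subclasses: inducible nuclear enzymes (DUSP1, DUSP2, DUSP4 and DUSP5), cytoplasmic enzymes that prefer ERK (DUSP6, DUSP7 and DUSP9), and enzymes that prefer JNK and p38 (DUSP8, DUSP10 and DUSP16).

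The start regions of 4 genes are shown because the results turn on them: DUSP1 is the best-known early gene of the family, the groups of DUSP8 and DUSP10 did not overlap with LPA higher, and those of DUSP9 did not overlap with LPA lower. Each run is the 250 bases before a transcript start, on the coding strand, from a RefSeq table of start regions (GRCh38.p14) in which 8 of the 10 genes were matched, with DUSP4 and DUSP5 not used here. The positions are chr5:172771196-172771445 on the minus strand for DUSP1, chr11:1572272-1572521 on the minus strand for DUSP8, chr1:221742090-221742339 on the minus strand for DUSP10 and chrX:153642191-153642440 on the plus strand for DUSP9. Capitals mark matches, on either strand, to the cyclic AMP response element TGACGTCA, to TGACG, which lies within it, and to the E-box CACGTG.
DUSP1: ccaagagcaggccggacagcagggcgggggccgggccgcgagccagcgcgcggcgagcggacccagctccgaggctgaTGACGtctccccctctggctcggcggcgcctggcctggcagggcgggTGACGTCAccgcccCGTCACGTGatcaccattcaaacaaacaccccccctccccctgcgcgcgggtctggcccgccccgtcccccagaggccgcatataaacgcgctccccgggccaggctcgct
DUSP8: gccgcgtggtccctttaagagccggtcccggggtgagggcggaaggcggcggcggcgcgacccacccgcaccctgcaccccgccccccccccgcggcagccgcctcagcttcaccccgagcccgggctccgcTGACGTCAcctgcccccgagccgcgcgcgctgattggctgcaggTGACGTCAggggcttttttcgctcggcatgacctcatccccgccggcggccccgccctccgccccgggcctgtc
DUSP10: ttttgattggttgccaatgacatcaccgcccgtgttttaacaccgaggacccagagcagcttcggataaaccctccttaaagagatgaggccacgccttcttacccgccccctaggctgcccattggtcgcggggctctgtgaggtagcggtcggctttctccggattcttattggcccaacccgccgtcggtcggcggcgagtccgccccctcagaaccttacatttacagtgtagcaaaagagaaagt
DUSP9: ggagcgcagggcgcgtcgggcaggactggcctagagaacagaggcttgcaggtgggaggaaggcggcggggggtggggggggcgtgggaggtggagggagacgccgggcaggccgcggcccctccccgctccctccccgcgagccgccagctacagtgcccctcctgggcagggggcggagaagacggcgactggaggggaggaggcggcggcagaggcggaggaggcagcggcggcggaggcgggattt

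The full TGACGTCA was found 2 times before DUSP8, starting 118 and 74 bases before the transcript start, and 1 time before DUSP1, starting 125 bases before it. Among all 35116 windows of this length it was present in 1.65%. TGACG was present in 21.2% of all windows and, among the 8 genes, in the same 2, DUSP1 and DUSP8. CACGTG, present in 6.34% of all windows, was found before DUSP1 and DUSP2. None of the 10 windows of these 8 genes held TGANTCA (the AP-1 site, 6.57% of all windows), CCGGAAGT (an ETS site, 3.42%) or a CArG box, the site of the serum response factor (1.16%). These matches describe letters in short windows and do not show binding.

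The arrays had median intensities of 70.3 to 76.1 over all probe sets. LPA replicate 2 stood apart, with a maximum of 62508 against 93776 to 104012 on the others. Its ACTB 3′-to-5′ ratio was 18.8 against 12.6 to 13.6, so each member's difference is also given without this array. Its GAPDH ratio was 1.38, near the 1.35 of LPA replicate 1, against 1.25 and 1.22 on the untreated arrays. Of 10 markers of HEK293 cells, 9 were above a signal of 70.5 on all 4 arrays, including NEFL, NEFM, INA, VIM, KRT8 and KRT18, while LHX1 was not. Of 9 markers of other cell types measured, COL1A1 was above it on all 4 arrays, PECAM1 on 2 and MYH11, CDH5 and DES on 1 each, and PTPRC, CD3E, ALB and GFAP were below it on all 4. The summed signal of these 9 markers was 1435.1 and 1544.8 on the untreated arrays and 1098.2 and 1280.2 on the LPA arrays. Their part in the results below was not tested.

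Values are MAS5 intensities on a linear scale, and differences are LPA minus untreated in log2(intensity + 1). Each gene was tested at the probe set with the highest mean over the 4 arrays. A filter at the 40th percentile of these means, a signal of 70.5, left 11865 genes and 8 of the 10 members. DUSP2 and DUSP6 fell under this filter, and their standard errors (SE), like those of probe sets that are not the brightest of their gene, come from the same fit over all 41097 probe sets. In bulk RNA of this kind, fewer cells with a transcript and less of it per cell cannot be told apart. With limma and Benjamini-Hochberg adjustment 0 of the 8 members passed an adjusted p of 0.05, and neither did any other gene (background 0% of 11865). Every tested member had adjusted p = 0.9999 in this fit, and every member probe set 0.9998 in the fit over probe sets. Before adjustment, limma gave p under 0.05 for 207 of the 11865 genes and 1378 of the 41097 probe sets. Both shares are below the 0.05 that evenly spread p-values would give, so these counts show no excess. For a single gene, an exact permutation test of 2 arrays against 2 cannot go below p = 0.333 (two-sided).

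**Figure D1:**
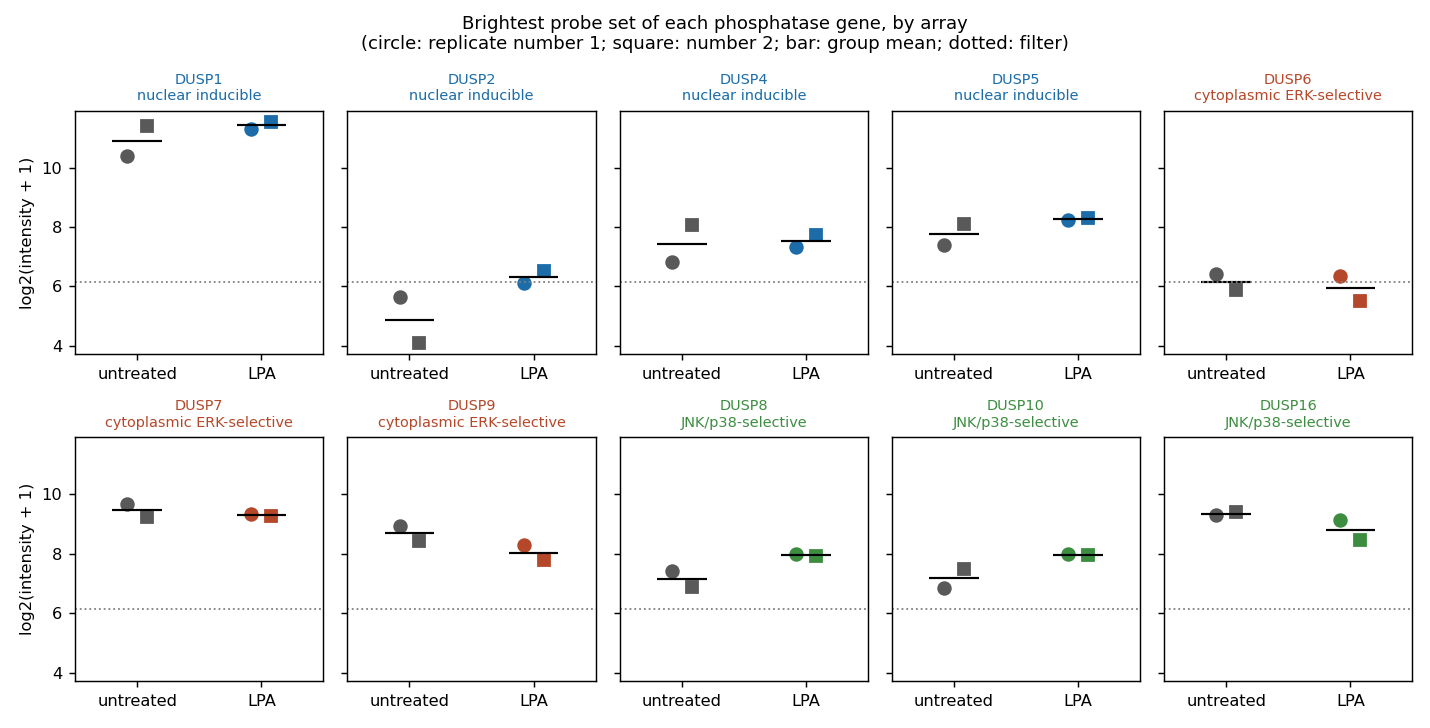
Intensity of the brightest probe set of each of the 10 genes on each array, as log2(intensity + 1). Circles are replicate number 1, squares number 2, bars group means and the dotted line the filter at a signal of 70.5. The LPA points lie above both untreated points for DUSP2, DUSP5, DUSP8 and DUSP10 and below them for DUSP9 and DUSP16, and heights are not comparable between genes.

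At the brightest probe sets, 6 of the 10 genes had a mean difference above 0 and 4 below it. The LPA arrays were both higher than the untreated arrays, with no overlap, for 3 of the 8 tested members, DUSP5, DUSP8 and DUSP10, where the background is 14.4% of all genes, and for DUSP2, which was not tested. They were both lower for 2 of the 8, DUSP9 and DUSP16 (background 12.5%). By replicate number, 4 of the 8 were higher after LPA in both numbers (background 28.3%), 2 were lower in both (25.2%) and 2 went opposite ways. The median difference was 0.30 over the 8 and 0.30 over all 10, against 0.0092 over all tested genes. For the 8 it was 0.53 in replicate number 1 but 0.089 in number 2, against -0.0014 and 0.025 over all tested genes. Over all 22 probe sets the counts were 6 above and 3 below, with backgrounds of 15% and 15.8%, and the median was 0.048 against -0.0048 over all probe sets with 1 symbol.

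Among the nuclear enzymes, DUSP1, which acts on p38, JNK and ERK and is a classic early gene of serum and stress, read 1335 and 2681 in untreated replicates 1 and 2 and 2523 and 2976 after LPA. Untreated replicate 1 was low and the other 3 arrays lay close together, so the groups overlapped. The log2 difference was 0.53 ± 0.29 (SE, 2 arrays per group), with a 95% interval from -0.14 to 1.21. It was 0.92 in replicate number 1 and 0.15 in number 2, 0.031 with untreated replicate 1 left out, 1.04 with untreated replicate 2 left out and 0.415 with LPA replicate 2 left out. Its other probe sets were dim. The probe set 226578_s_at read 46.4 and 122.6 without LPA and 77.9 and 81.2 with it, and 201044_x_at stayed below the filter on every array, with a difference of -0.43 ± 1.10. Both also had untreated replicate 1 as their lowest array.

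DUSP5, a nuclear phosphatase specific to ERK, read 167.4 and 275.9 without LPA and 299.6 and 317.1 with it. As for DUSP1, untreated replicate 1 was the lowest array, but both LPA values lay above both untreated ones. The difference was 0.52 ± 0.34, with 0.84 in number 1 and 0.20 in number 2, and a 95% interval from -0.26 to 1.29. It was 0.16 with untreated replicate 1 left out, 0.88 with untreated replicate 2 left out and 0.48 with LPA replicate 2 left out.

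DUSP4, a nuclear phosphatase of ERK and JNK, read 111.2 and 265.9 on the untreated arrays and 158.2 and 208.9 on the LPA arrays at its brightest probe set. The LPA values lay between the untreated ones, and the difference was 0.079 ± 0.46. It was 0.50 in number 1 and -0.35 in number 2, and turned negative without untreated replicate 1 (-0.55) or without LPA replicate 2 (-0.12). The probe set 226034_at read 65.3 and 51.4 against 73.3 and 129.3, a difference of 0.74 ± 0.61 with no overlap. The probe set 204014_at read 4.81 and 94.7 against 72.2 and 110.4, where the difference of 1.94 ± 1.23 came from number 1 (3.65, against 0.22 in number 2). The 3 probe sets of DUSP4 therefore gave differences from 0.079 to 1.94, and the brightest gave the smallest.

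DUSP2, a nuclear phosphatase best known from activated lymphocytes, has 1 probe set, which read 48.8 and 16.1 on the untreated arrays and 68.4 and 90.4 on the LPA arrays. Only LPA replicate 2 was above the filter, so its level is not shown to be above background in untreated cells. The difference of 1.45 ± 0.82, with a 95% interval from -0.42 to 3.32, is therefore uncertain in size, and with a pseudocount of 64 it was 0.589. It was 0.48 in number 1 and 2.42 in number 2. Leaving out untreated replicate 1 gave 2.22, leaving out untreated replicate 2 gave 0.677 and leaving out LPA replicate 2 gave 1.25.

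**Figure D2:**
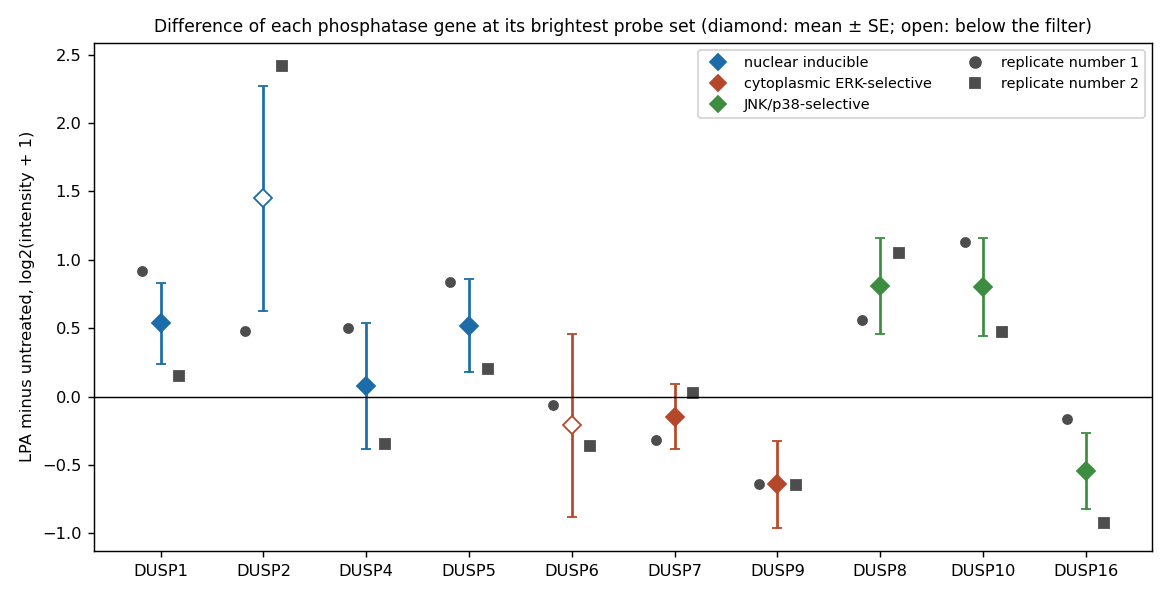
LPA minus untreated difference of each gene in log2(intensity + 1), by subclass. Diamonds are means with limma's SE (open for DUSP2 and DUSP6, which lie under the filter), circles replicate number 1 and squares number 2. Both numbers give nearly the same value for DUSP9, -0.64 and -0.65, while DUSP2 spans 0.48 to 2.42.

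Of the cytoplasmic ERK phosphatases, DUSP9, known from placenta, kidney and liver, read 487.6 and 345.4 without LPA and 313.4 and 220.3 with it. Both LPA values were below both untreated ones, and on each side replicate 2 was the lower array. The difference was -0.64 ± 0.32, or 0.64 of the untreated level, with a 95% interval from -1.37 to 0.085. It was -0.64 in number 1 and -0.65 in number 2, the most even pair among the 10 genes. Without untreated replicate 1 it was -0.39 and without LPA replicate 2 also -0.39.

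DUSP7 read 815.5 and 607.2 without LPA and 653.0 and 618.6 with it. The LPA values lay between the untreated ones, and the difference was -0.15 ± 0.24. It was 0.066 with untreated replicate 1 left out, -0.36 with untreated replicate 2 left out and -0.11 with LPA replicate 2 left out. The dimmer probe set 214793_at read 91.6 and 84.5 against 57.3 and 38.4, a difference of -0.89 ± 0.64 with no overlap, where both LPA values were under the filter.

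DUSP6, the cytoplasmic ERK phosphatase most used as a readout of ERK activity, read 83.7 and 58.1 on the untreated arrays and 80.3 and 44.9 on the LPA arrays at its brightest probe set. On each side replicate 2 was lower, and the spread within each group exceeded the difference between groups. This difference was -0.21 ± 0.67, with a 95% interval from -1.73 to 1.30. It turned positive without untreated replicate 1 (0.048) or without LPA replicate 2 (0.20). The other DUSP6 probe sets were under the filter on all 4 arrays, at 41.6 to 54.7 for 208892_s_at and 3.29 to 10.8 for 208893_s_at, with differences of 0.022 and -0.21. No difference of DUSP6 was detected, and the interval leaves a wide range of values in both directions.

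Among the JNK and p38 phosphatases, DUSP8 read 172.4 and 116.8 without LPA and 254.8 and 243.1 with it. The LPA arrays were close together and above both untreated arrays. The difference was 0.81 ± 0.35, a 1.75-fold higher value, with a 95% interval from 0.0033 to 1.61 and an unadjusted limma p of 0.0493, the only one under 0.05 among the 8 tested members (background 1.18% of all genes on the higher side). It was 0.56 in number 1 and 1.05 in number 2, 0.84 without LPA replicate 2 and 0.53 without untreated replicate 2. The mean of both DUSP8 probe sets gave 0.265. The probe set 238594_x_at, of a kind whose probes can match other transcripts, went the other way, with 141.4 and 41.1 against 109.9 and 35.9. There replicate 1 was the higher array in both groups, and the difference was -0.28 ± 0.83.

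DUSP10, a phosphatase of JNK and p38 found in nucleus and cytoplasm, read 115.1 and 178.7 without LPA and 252.5 and 248.2 with it. Again the LPA arrays were close together and above both untreated ones. The difference was 0.80 ± 0.36, a 1.74-fold higher value, with a 95% interval from -0.017 to 1.62. It was 0.81 without LPA replicate 2 and 0.48 without untreated replicate 1. The second probe set, 215501_s_at, read 78.4 and 63.1 against 137.5 and 131.4, a difference of 0.92 ± 0.50, again with no overlap. DUSP10 was the only gene of the 7 with several probe sets whose groups did not overlap, with LPA higher, at every probe set. The share of all genes with several probe sets that did so was not counted, so this does not set DUSP10 apart from other genes.

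DUSP16, a JNK phosphatase that shuttles between nucleus and cytoplasm, read 630.5 and 674.4 without LPA and 561.7 and 354.5 with it. LPA replicate 2 was the low array. The difference was -0.55 ± 0.28 and became -0.22 without LPA replicate 2, against -0.88 without LPA replicate 1. The next probe set, 224336_s_at, read 181.1 and 232.2 against 209.5 and 228.0, a difference of 0.092 ± 0.33. The remaining DUSP16 probe sets were above the filter on 1 array each, untreated replicate 2, with differences of -0.36 and -0.81.

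**Figure D3:**
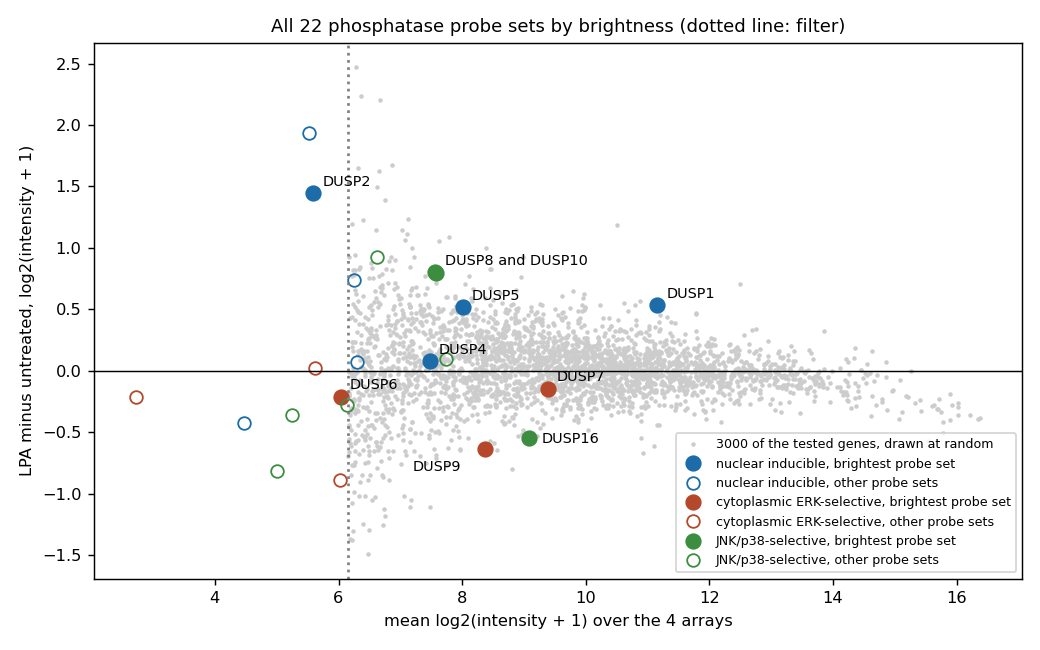
LPA minus untreated difference against mean brightness over the 4 arrays for all 22 phosphatase probe sets (filled: brightest of its gene; open: others) and 3000 of the tested genes in grey. Left of the dotted filter line the members scatter from -0.89 to 1.94, and DUSP8 and DUSP10 nearly coincide at 0.81 and 0.80.

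Averaged over members at their brightest probe sets, the differences were 0.65 for the 4 nuclear inducible genes, -0.33 for the 3 cytoplasmic ERK-selective genes and 0.35 for the 3 JNK/p38-selective genes. These averages are descriptions without a test, since members are not replicates. In replicate numbers 1 and 2 the nuclear average was 0.68 and 0.61, the ERK-selective -0.34 and -0.33, and the JNK/p38-selective 0.51 and 0.20. The nuclear values lay close only with the dim DUSP2 counted, which gave 0.48 and 2.42. DUSP1 gave 0.92 and 0.15, DUSP4 0.50 and -0.35, and DUSP5 0.84 and 0.20. The ERK-selective averages also lay close although their members did not all do so. The dim DUSP6 gave -0.059 and -0.36, DUSP7 -0.32 and 0.027, and DUSP9 -0.64 and -0.65. All 4 nuclear genes had a mean difference above 0 and all 3 ERK-selective genes below it, where 51.9% of all tested genes were above 0. The JNK/p38 subclass was split, with DUSP8 and DUSP10 higher and DUSP16 lower.

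The nuclear average exceeded the ERK-selective one by 0.98, with 1.02 in number 1 and 0.93 in number 2. Both values count the dim DUSP2, which gave 0.48 in number 1 and 2.42 in number 2. They also count the dim DUSP6, which gave -0.059 in number 1 and -0.36 in number 2. The excess was 0.56 when untreated replicate 1 was left out and 1.40 when untreated replicate 2 was. It was 1.35 when LPA replicate 1 was left out and 0.60 when LPA replicate 2 was. The JNK/p38 average exceeded the ERK-selective one by 0.69. The nuclear average exceeded the JNK/p38 one by 0.29, but medians in place of means gave -0.27, and leaving out the dim DUSP2 and DUSP6 gave 0.024. DUSP2 alone thus carried much of the nuclear average, which was 0.38 without it.

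**Figure D4:**
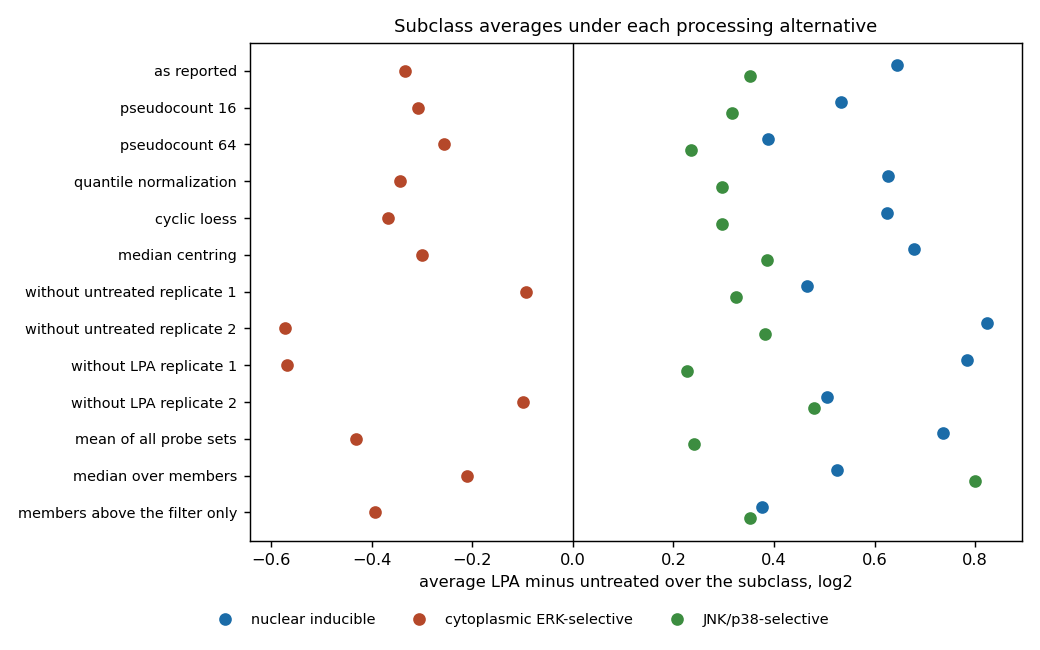
Average LPA minus untreated difference of each subclass, in log2, as reported and under each of 12 alternatives. The ERK-selective average stays below 0, from -0.57 to -0.093, the nuclear one ranges from 0.38 to 0.82 and the JNK/p38 one from 0.23 to 0.80.

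At 6 of the 10 genes the untreated arrays were further apart than the group means. Untreated replicate 2 less untreated replicate 1 was 1.01 for DUSP1, -1.54 for DUSP2, 1.25 for DUSP4, 0.72 for DUSP5, -0.52 for DUSP6 and -0.42 for DUSP7. At the other 4 it was smaller than the group difference, with 0.63 for DUSP10, -0.56 for DUSP8, -0.50 for DUSP9 and 0.097 for DUSP16. The signed median over all tested genes was 0.0054, which tells where these values are centred and not how far apart the untreated arrays lie. How often other genes had such a gap was not counted, so the members are not shown to vary more. The corresponding difference between the LPA arrays was smaller in size for DUSP1 (0.24), DUSP2 (0.40), DUSP4 (0.40), DUSP5 (0.082), DUSP7 (-0.078), DUSP8 (-0.068) and DUSP10 (-0.025). It was about as large for DUSP9 (-0.51) and larger for DUSP6 (-0.82) and DUSP16 (-0.66).

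The tested genes with the profile most like a member's were found by the distance between log2 values centred on each gene's mean over the 4 arrays. With 4 arrays such likeness is a description only. Nearest to DUSP1 was OSTM1, at a distance of 0.031, which read 355.5 and 717.9 on the untreated arrays and 668.8 and 811.9 on the LPA arrays. PPP1R18 (0.055) and ZNF385B (0.062) followed. Nearest to DUSP8 were SNORA72 (0.063), SH2D3A (0.16) and C1orf167 (0.16). Nearest to DUSP9 were PPP3CB-AS1 (0.057), EVI5L (0.073) and, before both, COA7 (0.029), which read 1614 and 1127 against 1035 and 740. Among members, DUSP5 was the closest to DUSP1, at 0.23 with 49 genes closer, while DUSP8 and DUSP10 lay 0.84 apart, and their untreated arrays differed in opposite directions.

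The kinases these enzymes act on, with the kinases above them, showed no shared direction. Of 20 listed genes of the MAP kinase cascade 14 had a probe set with 1 symbol and 13 were tested, of which 0 passed, 6 had a mean difference above 0 and 7 below, with a median of -0.0092. Of the 13, 2 had no overlap with LPA higher (background 14.4% of all genes) and 1 with LPA lower (12.5%). MAPK10, a JNK most abundant in neurons, read 113.7 and 134.2 without LPA and 165.8 and 217.6 with it. Its difference was 0.62 ± 0.37 with no overlap. MAPK9, another JNK gene, read 2353 and 2971 against 2774 and 3535, a difference of 0.24 ± 0.19 with overlapping groups, and its other probe sets gave 0.11 and -0.13.

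Of 17 other phosphatases that act on MAP kinases or share the fold, 12 were tested and 0 passed. The median was -0.048, 4 lay above 0 and 8 below. With no overlap, 2 of the 12 were higher after LPA (background 14.4% of all genes) and 3 lower (12.5%). STYX, a catalytically inactive relative that binds ERK, read 713.3 and 778.4 against 998.7 and 969.5, a difference of 0.40 ± 0.20 with no overlap. Other STYX probe sets of sufficient brightness gave 0.061 and 0.30. DUSP18, an atypical family member, read 121.3 and 183.9 against 99.3 and 32.7 (-1.37 ± 0.58), but a second bright enough probe set gave 1.01. DUSP28 differed by 0.36 ± 0.26 with no overlap, and DUSP3, the VHR phosphatase, by -0.23 ± 0.20 with no overlap, where its other probe sets gave 0.18 and 0.25.

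Transcription factors known to act on promoters of this family gave 0 passing genes of 7 tested and a median of -0.017. With no overlap, 2 of these 7 were higher after LPA (background 14.4% of all genes) and 0 lower (12.5%). ATF2, which binds cyclic AMP response elements, read 2030 and 2597 against 2975 and 2892 (0.35 ± 0.18, no overlap), while a second one gave -0.20. ELK4, an ETS partner of the serum response factor, differed by 0.26 ± 0.20 with no overlap. Other ELK4 probe sets of sufficient brightness gave 0.56 and 0.28 with overlapping groups. ETS2, an ETS family factor, read 617.0 and 380.0 against 390.7 and 373.1, and the groups overlap. A second ETS2 probe set read 313.5 and 262.6 against 254.9 and 221.5, a difference of -0.27 with no overlap. Among 6 tested genes whose proteins control the stability of such mRNAs, 0 passed and the median was 0.0075. Of these 6, 1 was higher with no overlap and 0 lower. ZFP36L1, which promotes decay of mRNAs with AU-rich elements, read 730.0 and 896.2 against 1116 and 1330, a difference of 0.59 ± 0.21 with no overlap and an unadjusted limma p of 0.0212 (adjusted p = 0.9999). Its relative ZFP36L2 read 2508 and 1335 against 1662 and 1051, a difference of -0.47 ± 0.32 with overlapping groups. A second ZFP36L2 probe set read 308.9 and 282.4 against 226 and 223.2, a difference of -0.39 with no overlap.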

How the data were processed

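Expression was measured on 4 arrays, 2 from untreated and 2 from LPA-treated HEK293 cells, grouped by the labels' treatment field. The authors deposited linear MAS5 intensity values, per the submitters' processing notes. The MAS5 version, background settings and scaling target are, in the sources used here, not stated, and detection calls were not used. After trimming 2% at each end every array had a mean of 500.1, so arrays had been scaled before deposit, which does not equalise the shape of their distributions. Values were taken as log2(intensity + 1) without further normalization. Symbols came from the platform annotation, and all 10 members' symbols matched RefSeq by Entrez identifier. Groups were compared with limma 3.58.1 in R 4.3.3 (lmFit and trended eBayes). P-values were two-sided and adjusted by Benjamini and Hochberg over 11865 genes or 41097 probe sets, with a threshold of 0.05. Adding 1 draws the fold of a dim gene toward 1, and larger additions draw it further. For DUSP2 the log2 difference was 1.45 with 1, 1.05 with 16 and 0.589 with 64. Differences of dim genes are thus uncertain in size and are not lower bounds. The median SE over genes was 0.244, since precision is limited by the number of arrays.

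Members, subclasses and gene lists were chosen with earlier results of these data known. All members were named with every probe set, up to 4 genes of each further list by smallest p, and the 3 nearest genes of up to 3 members. Alternatives were pseudocounts of 16 and 64, quantile, cyclic loess and median scaling, no intensity trend, the replicate number as a block, other filters, the mean of all probe sets, and leaving out each array. One alternative, subclass averages without members under the filter, was added after seeing the data. Probe sets with several symbols were not used here.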

Additional observations from a re-analysis of the deposited data

How the results depend on the processing

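The results are limited by 2 arrays per group, by a filter at a signal of 70.5 in place of detection calls, and by probe sets of one gene that disagree. Without a block, limma called 0 genes and 0 probe sets. With the replicate number as a block it called 32 genes and 113 probe sets, and with the block and quantile normalization 4 and 63. None of the tested members was among the called genes in either. Member probe sets were looked up in the blocked fits over probe sets only for DUSP2 and DUSP6, at their brightest, and neither was called. In limma's blocked fit over genes, the lowest adjusted p of a member was 0.0809, for DUSP1. The next were 0.407 for DUSP16, 0.461 for DUSP9, 0.508 for DUSP8 and 0.522 for DUSP10. The labels do not say what the replicate number marks. Deviations of same-numbered arrays from their group means correlated at r = 0.33 across genes, which are not independent. Leaving out 1 array gave 0 to 3 genes. With 1 array left in a group, that array is assumed to vary like the others.

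Leaving out 1 array also gave differences from -0.547 to 0.704 for DUSP4, -0.623 to 0.201 for DUSP6 and -0.359 to 0.0658 for DUSP7. The nuclear less ERK-selective average was 0.841 with a pseudocount of 16, 0.644 with 64, 1.17 with the mean of all probe sets, 0.737 with medians over members and 0.771 without members under the filter, and 0.559 to 1.40 leaving out 1 array. The JNK/p38 less ERK-selective average was 1.01 with medians over members and 0.418 to 0.954 leaving out 1 array. The nuclear less JNK/p38 average was 0.496 with the mean of all probe sets, -0.273 with medians, 0.0239 without members under the filter and 0.0263 to 0.557 leaving out 1 array. The cause was not tested in any of these cases. Under quantile, cyclic loess and median scaling the median difference over all genes lay between -0.000778 and 0.0424.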
